A study of Homo sapiens with 24 samples.

Results

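The 4 liprin-alpha genes, PPFIA1, PPFIA2, PPFIA3 and PPFIA4, were followed in RCC4+VHL cells under hypoxia and an AHR ligand, as 4 of the 23106 gene symbols in the count files. They were taken by symbol as a family, and the family was selected on a measured value: PPFIA4 had the largest change in hypoxia + DMSO against normoxia + DMSO among genes named from these libraries. The values of that contrast are therefore given as a description with no test. Tests are reported for hypoxia + ITE against normoxia + ITE, whose 12 libraries lie outside that contrast. For members other than PPFIA4 they are also reported for the effects of ITE, which share libraries with the contrast that chose PPFIA4. The ITE values of PPFIA4 are therefore a description too. Earlier results of these data were known at the choice, so that the tested libraries may not be independent of it. For PPFIA4 these tests also ask again about the trait it was chosen for, a change in hypoxia.

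RCC4 is a clear cell renal carcinoma line without functional VHL, and RCC4+VHL cells are a stable transfectant in which VHL was restored from a plasmid, so that HIF is low in normoxia and accumulates when oxygen falls. Every group carried this transgene and the line was kept under G418, so that the hypoxia response is that of a VHL-competent derivative of 1 line. Cells in 21% oxygen (normoxia + DMSO and normoxia + ITE) and cells in 0.5% oxygen (hypoxia + DMSO and hypoxia + ITE) gave 6 replicates per group. ITE, an activating ligand of AHR, was given at 100 nM and its vehicle DMSO at 0.1%, and all exposures lasted 6 h. Polyadenylated RNA was sequenced from bulk cultures, where fewer expressing cells and less RNA per cell cannot be told apart.

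Liprins-alpha are scaffold proteins with coiled coils at the amino terminus and SAM domains at the carboxyl terminus. They bind LAR-type receptor phosphatases and ERC proteins, organise the presynaptic active zone in neurons and, in non-neuronal cells, sit near focal adhesions and at the cortical sites where microtubules are captured. PPFIA1 is the broadly expressed member, whereas PPFIA2 and PPFIA3 are known mainly from brain and PPFIA4 from brain and skeletal muscle. HIF binds DNA as a dimer with ARNT at elements with the core ACGTG or GCGTG, and AHR with the same partner binds elements that hold GCGTG.

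On GRCh37, PPFIA4 lies on the plus strand at chr1:202995619-203047868, PPFIA1 on the plus strand at chr11:70116796-70231418, PPFIA3 on the plus strand at chr19:49622801-49654283 and PPFIA2 on the minus strand at chr12:81651754-82153332. Their longest coding transcripts have 31, 30, 30 and 33 exons in that order. To set the responsive gene beside its expressed paralogs, the 250 bases before the start of each are shown for PPFIA4, PPFIA1 and PPFIA3, 5′ to 3′ on the gene strand. The sequences are RefSeq promoter windows of GRCh38.p14, each found once and without mismatch on GRCh37, at chr1:202995369-202995618, chr11:70116546-70116795 and chr19:49622551-49622800. Capitals mark ACGTG and GCGTG on either strand, so that the reverse complement of ACGTG reads CACGT.
PPFIA4: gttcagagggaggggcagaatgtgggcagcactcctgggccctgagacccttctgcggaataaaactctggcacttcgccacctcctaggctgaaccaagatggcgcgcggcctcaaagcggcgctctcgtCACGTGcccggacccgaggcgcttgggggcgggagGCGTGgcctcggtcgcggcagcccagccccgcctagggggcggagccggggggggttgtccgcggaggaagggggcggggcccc
PPFIA1: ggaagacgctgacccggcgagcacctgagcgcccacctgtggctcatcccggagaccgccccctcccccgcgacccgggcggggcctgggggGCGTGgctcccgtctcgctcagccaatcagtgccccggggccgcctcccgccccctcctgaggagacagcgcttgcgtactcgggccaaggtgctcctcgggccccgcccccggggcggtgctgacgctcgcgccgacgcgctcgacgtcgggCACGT
PPFIA3: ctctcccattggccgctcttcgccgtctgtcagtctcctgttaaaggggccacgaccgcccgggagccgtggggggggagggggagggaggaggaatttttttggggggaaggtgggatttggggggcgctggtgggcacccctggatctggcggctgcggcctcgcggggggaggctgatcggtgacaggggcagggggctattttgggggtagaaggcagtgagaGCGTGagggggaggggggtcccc
The PPFIA4 window held the palindrome CACGTG, which is ACGTG read on both strands in overlap, and 1 GCGTG closer to the start. ACGTG spanned bases 118 to 114 before the start on the gene strand and 119 to 115 on the other, and GCGTG spanned bases 84 to 80. The PPFIA1 window held 1 ACGTG on the other strand, directly before the start, and 1 GCGTG, whereas the PPFIA3 window held 1 GCGTG and no ACGTG. Over all 35116 RefSeq windows of this length, 18.5% held ACGTG, 32.2% held GCGTG, 7.52% held both and 6.34% held CACGTG. A match describes the letters of the window and is not a measured binding site, and PPFIA1 also had both cores. So did the PPFIA2 window at chr12:82153130-82153379, not shown, with 1 ACGTG and 2 GCGTG. The other PPFIA2 windows held neither.

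The libraries held between 770094 and 93851342 counts (median 7981992.5), and hypoxia + DMSO replicate 2 and hypoxia + ITE replicate 1 were the 2 below 2000000. Values are given in CPM, counts relative to the total of the library, with totals scaled by TMM, a method that sets aside the most extreme genes. Of the renal epithelial markers, 6 of 7 had a mean of at least 1 CPM over the 24 libraries, LRP2 being the exception. Of the neuronal markers only TUBB3 and ENO2 of 6 did, the latter also a glycolytic gene, and of the skeletal muscle markers 0 of 5 did, although their sum reached 41.8 CPM in normoxia + DMSO, with ACTA1 at up to 19.1 CPM, MYH2 at up to 14.4 CPM in replicate 4 and CKM at up to 7.73 CPM. In the other 3 groups that sum was at most 0.951 CPM, and the PPFIA4 level of normoxia + DMSO replicate 4, 0.663 CPM, lay within the range of its group. Of the 6 leukocyte and endothelial markers only CD68 had a mean of at least 1 CPM. Their sum reached 31.4 CPM in hypoxia + ITE. VHL, for which endogenous and transgene transcripts are counted together, ranged from 147.0 to 235.6 CPM in hypoxia + DMSO and from 163.9 to 700.8 CPM in hypoxia + ITE, highest in replicate 6. Hypoxia + ITE replicate 6 had the lowest TMM factor of all libraries, 0.7315, which raises all its CPM values. The mean log2 CPM of 135 genes that rose in hypoxia + DMSO, PPFIA4 left out, lay between 4.63 and 4.78 in the normoxia + ITE libraries and between 5.46 and 5.91 in the hypoxia + ITE libraries. The lowest hypoxic value belonged to hypoxia + ITE replicate 1, which remained above each normoxia library.

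PPFIA1 carried most of the family's counts in every library. In normoxia its level was 79.2 ± 5.05 CPM with DMSO and 80.7 ± 8.27 CPM with ITE (SD, n = 6 each), and in hypoxia it was 72.4 ± 14.3 CPM with DMSO and 72.6 ± 14.7 CPM with ITE. The lowest library was hypoxia + ITE replicate 3 at 47.7 CPM and the highest normoxia + ITE replicate 2 at 93.9 CPM. All 4 groups overlapped, and the hypoxia groups were the more widely spread. PPFIA3 was far lower, at 4.50 ± 0.268 CPM with DMSO and 3.49 ± 0.728 CPM with ITE in normoxia, and at 3.69 ± 1.45 CPM and 5.47 ± 4.10 CPM, in that order, in hypoxia. Its spread in hypoxia + ITE came from the ends, 0.743 CPM in replicate 1 from a single count and 12.8 CPM in replicate 6 from 53 counts. The latter value is raised by the low TMM factor of that library. PPFIA2 gave 1 count in the 24 libraries together, in hypoxia + ITE replicate 2, and 0 in the other 23. This amounts to 0.00201 CPM over 496748449 counts, with an exact Poisson 95% interval of 5.1e-05 to 0.0112 CPM, and a sum of 0 would have allowed up to 0.00604 CPM (3 counts). Such intervals and limits cover counting error only.

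PPFIA4 was barely detected in normoxia. In normoxia + DMSO its counts in replicates 1 to 6 were 0, 13, 43, 18, 7 and 5, or 0, 0.290, 0.422, 0.663, 0.990 and 0.529 CPM. In normoxia + ITE they were 2, 3, 1, 2, 15 and 1, or 0.246, 0.573, 0.138, 0.273, 0.297 and 0.0958 CPM. Neither normoxia group reached 1 CPM in any library. In hypoxia + DMSO the counts were 21, 11, 128, 64, 487 and 69, or 4.66, 15.1, 15.2, 12.2, 12.3 and 10.6 CPM. In hypoxia + ITE they were 2, 394, 125, 1086, 158 and 50, or 1.49, 12.3, 7.30, 12.1, 9.14 and 12.1 CPM. Each of the 12 hypoxia libraries was above each of the 12 normoxia libraries. The DMSO libraries among them chose PPFIA4, and no share over all genes was computed for this separation, which is a description. The closest approach was hypoxia + ITE replicate 1, where 2 counts gave an exact Poisson 95% interval of 0.180 to 5.37 CPM, which reached into the normoxia range and stayed below the next hypoxia + ITE library.

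**Figure D1:**
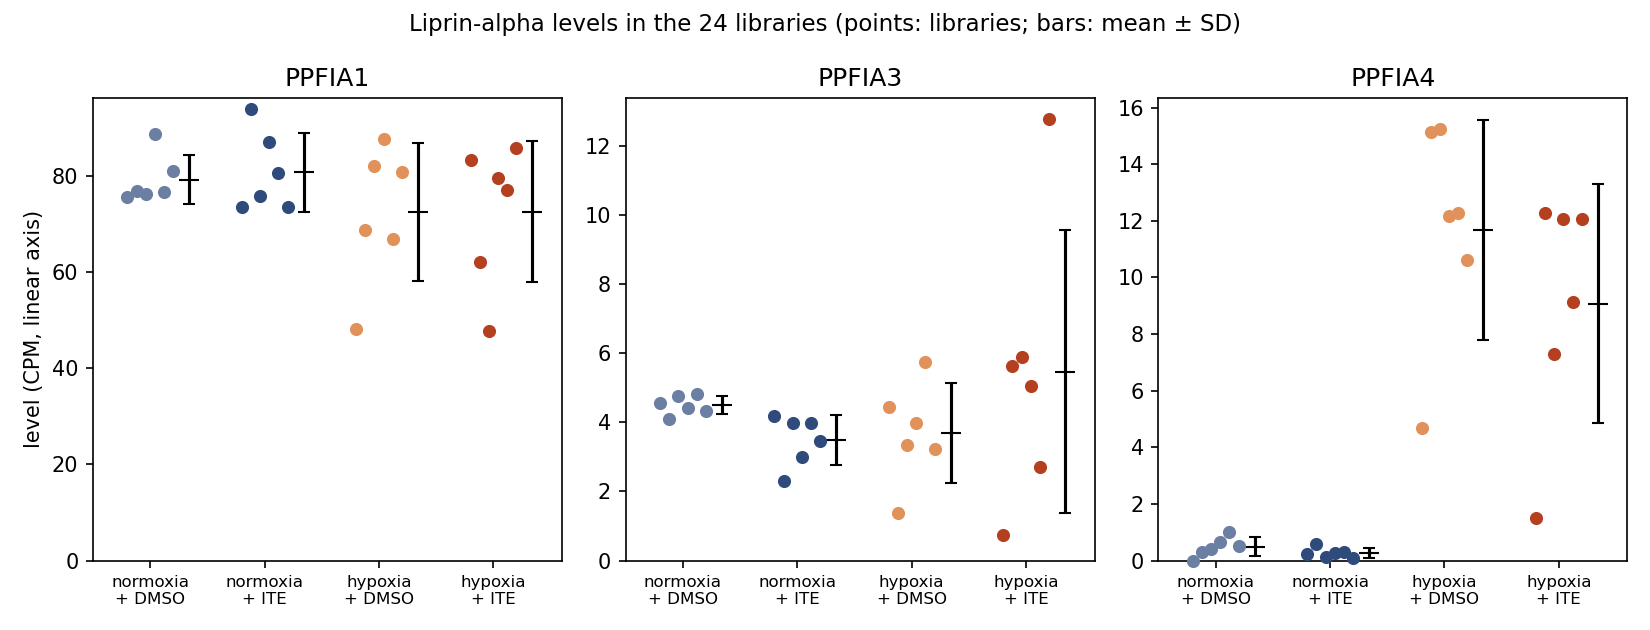
Levels of PPFIA1, PPFIA3 and PPFIA4 in CPM on linear axes that start at 0 and differ between panels. Points are libraries in order of replicate number, and bars are the mean ± SD of 6. PPFIA1 and PPFIA3 overlap in all 4 groups, whereas the PPFIA4 points of the hypoxia groups lie between 1.49 and 15.2 CPM, above the highest normoxia point at 0.990 CPM.

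Levels of different genes were compared per length, as CPM divided by the length in kb of the longest coding transcript. Per kb, PPFIA1 was at 13.2 CPM in normoxia + DMSO and 12.1 CPM in hypoxia + ITE, where it stood at percentile 57.2 of the 10455 tested genes with a length. PPFIA3 lay at 0.982 CPM per kb in normoxia + DMSO and 1.19 in hypoxia + ITE. PPFIA4 had 0.0729 CPM per kb in normoxia + DMSO and 0.0409 in normoxia + ITE, against 1.77 in hypoxia + DMSO and 1.37 in hypoxia + ITE. Its mean level per length was thus below that of PPFIA3 in both normoxia groups and above it in both hypoxia groups. By library, however, PPFIA4 was below PPFIA3 in hypoxia + DMSO replicate 1 and in hypoxia + ITE replicates 3 and 6. In the remaining hypoxia libraries it was above. The SD in hypoxia + ITE was 0.638 for PPFIA4 and 0.894 for PPFIA3. In hypoxia PPFIA4 still ranked low among the tested genes, at percentile 17.2 with DMSO and 13.1 with ITE. In order of level, PPFIA4 was highest in hypoxia + DMSO, followed by hypoxia + ITE, normoxia + DMSO and normoxia + ITE, and only the step between hypoxia + ITE and normoxia + DMSO separated groups whose ranges did not overlap.

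To ask whether oxygen changed the family outside the contrast that chose PPFIA4, hypoxia + ITE was compared with normoxia + ITE. As PPFIA4 was chosen for its change in hypoxia, a rise here was favoured by the choice. Its p-values are therefore no independent support. PPFIA4 was higher in hypoxia, with a log2 fold change of 5.16 (standard error 0.45, 95% interval 4.24 to 6.09, adjusted p = 5.5e-09, edgeR's quasi-likelihood test with Benjamini-Hochberg adjustment over 11735 genes), in 6 of 6 same-numbered pairs. In this comparison 276 of 11735 genes passed an adjusted p under 0.05, 2.35%, and the PPFIA4 fold change was the highest of all genes tested. PPFIA4 also ranked highest in the contrast that chose it, so that a high rank here was favoured by the choice. Groups that did not overlap with hypoxia + ITE the higher were found for 1.21% of genes. That PPFIA4 was among them was favoured likewise. PPFIA4 itself passed the filter on low counts only through the hypoxia groups, and without that filter its log2 fold change was 5.16 (adjusted p = 2.98e-09 in edgeR). Its normoxia + ITE level rests on 24 counts in 6 libraries, which limits the precision of the fold. The fit drew its filter, scaling and spread from all 24 libraries, those of the contrast that chose PPFIA4 included. With the compared groups alone the PPFIA4 log2 fold change was 5.16 (adjusted p = 5.38e-06 in edgeR). Over 20 alternatives to the analysis the log2 fold change lay between 5.01 and 5.32 and the adjusted p did not exceed 6.27e-05.

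The paralogs did not pass this test. PPFIA1 had a log2 fold change of -0.16 (95% interval -0.44 to 0.12, adjusted p = 0.526 in edgeR), and was lower in hypoxia + ITE in 4 of 6 pairs. Without hypoxia + ITE replicate 3, the library with the lowest PPFIA1, the value was -0.06. PPFIA3 had a log2 fold change of 0.67 (95% interval 0.05 to 1.29, adjusted p = 0.213 in edgeR), with 4 of 6 pairs higher. Without hypoxia + ITE replicate 6, the library with the highest PPFIA3 and VHL, the PPFIA3 value was 0.35, and the part of that library in the result was not tested further. PPFIA2 could not be fitted at 1 count. The median log2 fold change of all tested genes was 0.02.

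In hypoxia + DMSO against normoxia + DMSO, the contrast by which PPFIA4 was chosen, its log2 fold change was 4.63 (standard error 0.40). PPFIA1 had a log2 fold change of -0.12 and PPFIA3 of -0.14 in the same libraries. Among all genes 1.30% passed the threshold in this contrast, and nothing is read from it for the family.

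The difference between PPFIA4 and its paralogs was tested directly within libraries, which takes out most of the scaling for depth. The log2 CPM of PPFIA4 minus that of PPFIA1 was -3.22 ± 1.25 (SD, n = 6) in hypoxia + ITE and -7.91 ± 0.519 in normoxia + ITE. The difference between the groups was 4.69 (two-sided exact permutation p = 0.00217, also after adjustment over the 2 paralogs), the smallest p that 6 against 6 libraries allow. Against PPFIA3, the PPFIA4 value was -3.39 ± 0.876 in normoxia + ITE and 0.87 ± 0.655 in hypoxia + ITE, a shift of 4.26 (two-sided exact permutation p = 0.00217). Both differences mostly carry the rise of PPFIA4, the trait it was chosen for. They are thus no separate support for that rise. The corresponding means with DMSO, given as a description, were -7.43 and -2.69 against PPFIA1 and -3.32 and 1.66 against PPFIA3.

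As a share of the summed PPFIA1 to PPFIA4 counts, PPFIA4 took 0.310% ± 0.164 (SD, n = 6) in normoxia + ITE and 10.5% ± 4.62 in hypoxia + ITE. The hypoxia + ITE libraries lay between 1.74% and 15.3%, and the normoxia + ITE libraries between 0.124% and 0.593%. The groups did not overlap, and the difference of 10.2 percentage points had a two-sided exact permutation p of 0.00217. The share carries the same PPFIA4 rise, so that this p is no separate support either. With DMSO the share was 0.566% ± 0.398 in normoxia and 13.1% ± 3.39 in hypoxia. Hypoxia + ITE replicate 1 stood apart at 1.74%, the next library of its group being at 10.3%, and without it the difference from normoxia + ITE was 11.9 percentage points. The summed level of the family was 84.5 ± 7.80 CPM in normoxia + ITE, where PPFIA1 made up 95.5% of it by counts. It was 87.1 ± 16.6 CPM in hypoxia + ITE, with PPFIA1 at 83.3%, and the ranges of the sum overlapped.

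**Figure D2:**
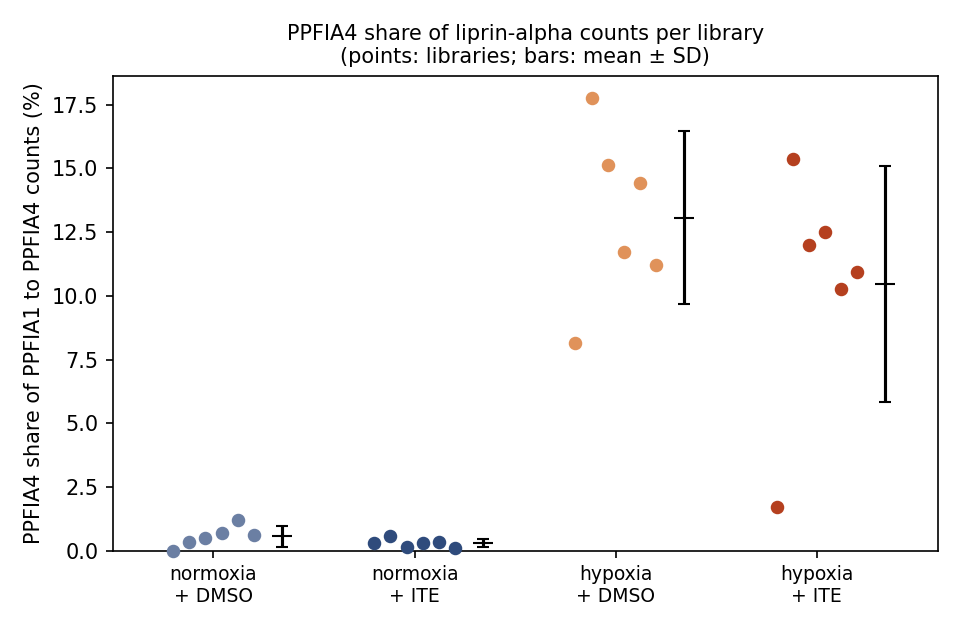
Percent of the summed PPFIA1 to PPFIA4 counts that belonged to PPFIA4, for each library (points, in order of replicate number) with the mean ± SD of 6 (bars). The normoxia libraries lie between 0% and 1.20%, and the hypoxia libraries between 1.74% and 17.7%, with hypoxia + ITE replicate 1 the lowest of the latter.

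The AHR ligand was then considered alone. In normoxia + ITE against normoxia + DMSO, PPFIA4 had a log2 fold change of -0.78 (95% interval -1.87 to 0.31), given as a description, at levels of a few counts. PPFIA3 had -0.34 (95% interval -0.95 to 0.26, adjusted p = 1 in edgeR). It was lower with ITE in 6 of 6 same-numbered pairs, while the ranges of the groups overlapped. How many of all genes were lower in every pair was not computed. PPFIA1 had 0.03 (95% interval -0.25 to 0.31). Over all genes 0.0511% passed the threshold, 6 that were higher and 0 that were lower, with 171 at an unadjusted p under 0.05 in edgeR and 14 passing in DESeq2. The normoxia + DMSO libraries of this comparison also entered the contrast that chose PPFIA4.

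In hypoxia + ITE against hypoxia + DMSO, 0.0597% of genes passed, 7 higher and 0 lower, with 1122 at an unadjusted p under 0.05 in edgeR and 9 passing in DESeq2. PPFIA4 had a log2 fold change of -0.25 (95% interval -0.91 to 0.40), given as a description, since the hypoxia + DMSO libraries are those whose high PPFIA4 chose the family. PPFIA1 had -0.01 (95% interval -0.30 to 0.27) and PPFIA3 0.46 (95% interval -0.18 to 1.10, adjusted p = 0.625 in edgeR), and without hypoxia + ITE replicate 6 these were -0.08 and 0.13. The intervals of PPFIA3 and PPFIA4 still allow changes by ITE of over 0.5 on the log2 scale in either oxygen level.

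The interaction asks whether the hypoxia change differed between ITE and DMSO. It was -0.04 for PPFIA1 (adjusted p = 0.989 in edgeR) and 0.81 for PPFIA3 (adjusted p = 0.915 in edgeR), and without hypoxia + ITE replicate 6 these were -0.10 and 0.48. For PPFIA4 it was 0.53 with a 95% interval of -0.73 to 1.79, given as a description because it contains the contrast that chose the gene. No gene passed in this comparison, 0%, with 374 of 11735 at an unadjusted p under 0.05 in edgeR and 0 passing in DESeq2.

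**Figure D3:**
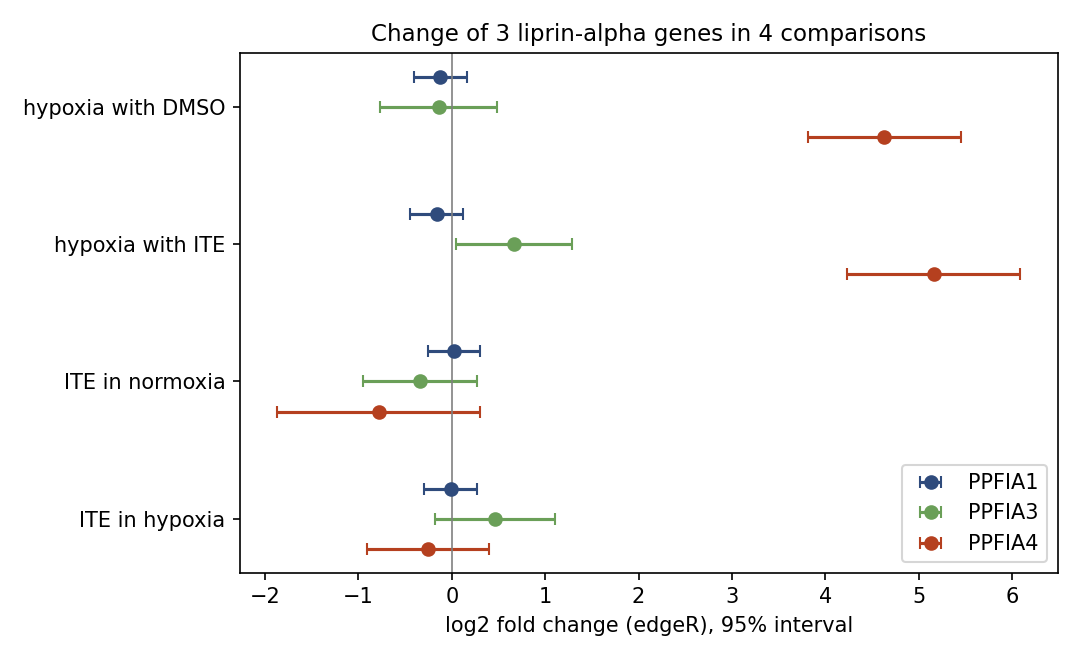
Log2 fold changes of PPFIA1, PPFIA3 and PPFIA4 from edgeR (points) with 95% intervals (lines) in 4 comparisons, with a vertical line at 0. PPFIA4 lies at 4.63 and 5.16 in the hypoxia comparisons and at -0.78 and -0.25 in the ITE comparisons, and the PPFIA1 points all lie within 0.2 of 0. The hypoxia with DMSO values chose PPFIA4 and are shown as a description.

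The annotated transcripts of the family were compared with those of other genes, the reads themselves not being used here. None of the 50-base stretches of the annotated PPFIA4 transcripts occurred in another member or another gene, and the same held for PPFIA3. Of those of PPFIA1 4.35%, and of those of PPFIA2 17.9%, occurred in genes outside the family. PPFIA4 and PPFIA3 overlap no other annotated gene. PPFIA1 and PPFIA2 have partners on the opposite strand, and as the strand setting of the counting is not given in the sources used here, reads from such partners cannot be told apart. Counts per gene also do not separate transcripts that start within PPFIA4 from those that start at its first exon.

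The genes next to PPFIA4 were not called by edgeR or DESeq2. TMEM183A, CYB5R1 and ADIPOR1 lie on its lower-coordinate side and MYOG, ADORA1 and MYBPH on the other, and 4 of these 6 were tested. In hypoxia + ITE against normoxia + ITE their log2 fold changes ranged from -0.12 to 0.41. The highest belonged to ADORA1, an adenosine receptor gene 11.9 kb away (adjusted p = 0.213 in edgeR). It was the 1 of the 4 with an unadjusted p under 0.05. MYOG, the muscle regulator 4.4 kb downstream, did not pass the filter on low counts. Of the neighbours of the other members, 9 of 18 were tested and 0 were called, the tested ones including CTTN beside PPFIA1 at 0.31 and SNRNP70 near PPFIA3 at 0.32, with 2 of them at an unadjusted p under 0.05 in edgeR and 0 called by DESeq2. Over all genes in this comparison, 2361 or 20.1% had an unadjusted p under 0.05 in edgeR and 5.77% were called by DESeq2.

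Known partners of liprins-alpha were read from 7 lists of 58 genes, of which 44 were tested. In hypoxia + ITE against normoxia + ITE, 0 of the 44 passed in edgeR and 8 had an unadjusted p under 0.05, while 1 passed in DESeq2, the active zone gene RIMS2 (log2 fold change -0.59, adjusted p = 0.0572 in edgeR and 0.0106 in DESeq2). The shares over all genes, in the order of these counts, were 2.35%, 20.1% and 5.77%. The partners had a median log2 fold change of -0.04 beside 0.02 for all genes. The liprins-beta, which pair with liprins-alpha, had -0.21 for PPFIBP1 and 0.09 for PPFIBP2. Among the LAR-type receptor phosphatases, PTPRF had 0.02, PTPRD -0.25 and PTPRS, named after its values were seen, 0.73 (adjusted p = 0.104 in edgeR). In the cortical microtubule complex, 0 of 10 tested genes passed, with PHLDB2 at -0.16 and PHLDB1 at 0.23, both of which anchor the complex at the cell cortex. The kinase PAK2 had -0.34 and the focal adhesion adaptor PXN -0.17 in the GIT and PIX list, where 0 of 6 passed. The integrin subunits ITGB1 and ITGA3 had -0.26 and 0.16, with 0 of 6 in their list passing. Of the 18 active zone genes 7 were tested and 0 passed, with the scaffold kinase CASK at -0.12 and the priming factor UNC13B at -0.07. Among other reported partners, the phosphatase subunits PPP2CA and PPP2R1A had 0.00408 and 0.21. With ITE in normoxia, 0 of the 44 passed and 0 had an unadjusted p under 0.05 in edgeR, and with ITE in hypoxia 0 passed and 2 had an unadjusted p under 0.05. DESeq2 called 0 of them in both.

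The genes whose log2 CPM followed PPFIA4 most closely over the 24 libraries were ENO2 (Pearson r = 0.95), KCTD11 (0.95), NDRG1 (0.94), BNIP3 (0.94) and FAM162A (0.93). ENO2 encodes an enolase of glycolysis, BNIP3 a mitophagy receptor and NDRG1 a protein long known as hypoxia-inducible. The points share their library and its depth, and the 24 libraries form the hypoxia and normoxia groups, so that these values are a description. With each group's mean taken out, r was 0.56, 0.61, 0.39, 0.29 and 0.42 in that order. With ITE, ENO2 was at 21.9 ± 1.95 CPM in normoxia and 82.2 ± 20.2 CPM in hypoxia. This was a log2 fold change of 1.92, smaller than the PPFIA4 value from a higher base. ENO2 was picked by its likeness to PPFIA4 in these libraries, so that no test is quoted for it. In hypoxia + ITE, ENO2, KCTD11, NDRG1, BNIP3 and FAM162A were each lowest in replicate 1, the library in which PPFIA4 had 2 counts. That library was among those used to pick these genes, so that a shared low there is favoured by the choice.

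**Figure D4:**
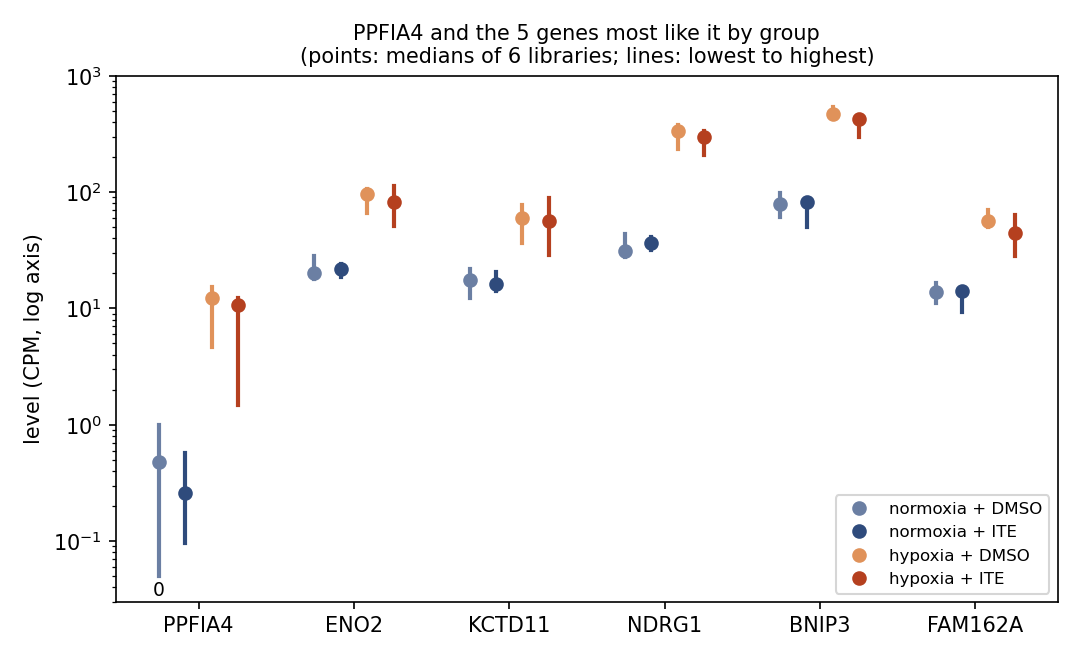
Levels in CPM, on a log axis, of PPFIA4 and the 5 genes with the most similar pattern, as medians of 6 libraries (points) with lines from the lowest to the highest library; the digit 0 marks a lowest value of 0. PPFIA4 goes from medians of 0.476 and 0.260 CPM in normoxia to 12.2 and 10.6 CPM in hypoxia, from a lower base than the other genes.

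PPFIA1 was most like other genes, VCL (r = 0.93), DOCK5 (0.91), SMC1A (0.90), C2CD3 (0.89) and TPR (0.88), and here the values were nearly the same with the group means taken out, 0.93 for VCL and 0.92 for DOCK5. VCL encodes vinculin of focal adhesions, DOCK5 an activator of Rac, SMC1A a cohesin subunit and TPR a nuclear pore protein. Across the 24 libraries PPFIA1 and PPFIA4 had r = -0.25, PPFIA1 and PPFIA3 -0.20, and PPFIA3 and PPFIA4 0.08. With the group means taken out, these were 0.24, -0.23 and 0.36.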

How the data were processed

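RNA from 24 cultures of RCC4+VHL cells, described as independent replicates, was sequenced after polyA selection. The authors trimmed adaptors with Trim Galore 0.3.3, aligned reads to GRCh37 with HISAT2, discarded fragments without a unique position with Picard 2.0.1, counted reads lying wholly within a gene with HTSeq 0.5.4p3 and deposited raw counts for 23106 symbols, not normalised. Reads in repeated sequence or beyond annotated exons are thus lost.

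Groups came from the sample labels. In edgeR 4.0.16 (R 4.3.3), filterByExpr with a minimum count of 10 kept 11735 genes, TMM gave scaling factors, and all 24 libraries entered a quasi-likelihood fit with a mean for each group. P-values were two-sided and adjusted by Benjamini-Hochberg with a threshold of 0.05. Log2 CPM used a prior count of 2. Paralogs and shares were compared by exact permutation tests (scipy 1.17.1). DESeq2 1.42.0, RLE size factors, other filters, the compared groups alone, the replicate block and omitted libraries were alternatives. Annotation was GENCODE for GRCh37. Depth is given as total counts, which set the counting error.

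The members and gene lists were chosen with earlier results of these data known. Named partners are those past the threshold in hypoxia + ITE against normoxia + ITE and the 2 most highly expressed of each list. PTPRS and RIMS2 fall outside this rule. The 5 genes most correlated with PPFIA4 and PPFIA1 and the 3 nearest genes on each side are also named.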

Additional observations from a re-analysis of the deposited data

Results flagged for a closer look

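In 7 measures over 4 groups of 6 libraries, 28 groups in all, 5 had a highest or lowest library separated from the others by more than Dixon's limit, and chance flags about 1 in 20 groups. Total counts were among them, at 48357647 in normoxia + ITE replicate 5, 37995687 in hypoxia + DMSO replicate 5 and 87404330 in hypoxia + ITE replicate 4, each the highest of its group. The PPFIA4 share of liprin-alpha counts was 1.74% in hypoxia + ITE replicate 1, where the next library had 10.3%. In the same library, log2 CPM of PPFIA4 minus that of PPFIA1 was -5.72, where the next had -3.06. The library held 1357702 counts, 2 of them on PPFIA4 and 112 on PPFIA1.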

How the results depend on the processing

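All 160 recomputed fold changes of PPFIA1, PPFIA3 and PPFIA4 and all 16 recomputed paralog or share differences kept their direction and, where tested, their side of the threshold. PPFIA4 in ITE in normoxia had no value with the compared groups alone, since it did not pass the filter there. Counts of genes over the whole table depended more on the model. In hypoxia with ITE the 276 calls became 677 with DESeq2, 475 without libraries under 2000000 counts and 85 with the compared groups alone, and leaving out 1 library gave 159 (normoxia + ITE replicate 4) to 811 (hypoxia + ITE replicate 5). In hypoxia with DMSO the 152 calls became 248 with DESeq2, 303 without hypoxia + ITE replicate 6 and 233 with the compared groups alone. For ITE in normoxia the 6 calls became 14 with DESeq2, 13 without hypoxia + ITE replicate 6 and 30 with the compared groups alone, and for ITE in hypoxia the 7 became 4 without libraries under 2000000 counts and 1 with the compared groups alone. The cause of these shifts was not tested.

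Same-numbered libraries deviated together with a correlation over 0.1 in 5 of 6 pairs of normoxia + DMSO and normoxia + ITE. In normoxia + ITE and hypoxia + ITE this held for 3 of 6. The mean correlation was 0.237 and 0.109 in these 2 comparisons, against -0.0496 and -0.0224 between libraries of different number. A library correlated best with its own number in 5 of 6 and 4 of 6. In hypoxia + DMSO and hypoxia + ITE the means were 0.0247 and 0.00296, with 2 of 6. Same-numbered libraries were thus partly alike in some groups. The main fit left the numbers out, and the block is an alternative. With the replicate block there were 261 calls in hypoxia with ITE, 174 in hypoxia with DMSO, 13 for ITE in normoxia, 8 for ITE in hypoxia and 0 for the interaction. With the block and the compared groups alone, chosen after seeing the data, these were 55, 258, 255 and 1 for the first 4. Under the block PPFIA4 rose by 5.11 in hypoxia with ITE (adjusted p = 4.28e-09 in edgeR), no call on a member changed, and 1 partner passed, RIMS2, named after its values were seen, at -0.59 without the block (adjusted p = 0.0572, and 0.0482 with it, in edgeR). Sign-flip tests over the 6 pairs gave an exact p of 0.03125, the smallest possible, for both paralog differences and the share. Each of these carries the PPFIA4 rise, the trait it was chosen for. Leaving out hypoxia + ITE replicate 1 in the exact tests and lengths from the union of exons were also chosen after seeing the data.

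PPFIA4 in normoxia rests on at most 43 counts a library, so effects of ITE there are poorly bounded.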
